A study of Mus musculus with 9 samples.

Results

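The proteasome subunit genes described here are the 49 genes in the deposited tables whose symbol is Psma, Psmb, Psmc, Psmd, Psme, Psmf or Psmg followed by a digit and which lie at 1 locus, out of 22977 genes. All 49 matched symbols lay at 1 locus and none had a failed estimate. Of these, 48 entered the tests with 10004 genes in all, and Psma8 did not. The study examined the transcription factor Foxo1 in germinal center B cells of mouse spleen, with 9 RNA libraries in 3 groups of 3. All cells came from donor B cells that carried 1 knock-in allele of the NP-binding B1-8hi receptor and 1 of ERT2cre, the Cre that tamoxifen activates. Foxo1(+/+) cells marked CD45.1/1 and Foxo1(f/f) cells marked CD45.1/2 were mixed in equal numbers and transferred into C57BL/6 mice. The mice were immunized with NP-CGG in alum on day 0 and took tamoxifen by mouth on days 7, 8 and 9, so both genotypes were exposed to it, and B220+ NP+ GL7+ CD38- cells were sorted on day 12. Foxo1(+/+) cells formed the light zone group (LZ, CD86hi CXCR4lo) and the dark zone group (DZ, CD86lo CXCR4hi). The Foxo1-deficient group held Foxo1(f/f) cells sorted with no zone gate, so genotype and gate changed together and cannot be told apart. The labels also give these cells a gate negative for CD45.2, which does not match their CD45.1/2 genotype, and the point was not settled here. The labels give no age and do not say whether replicates were separate animals, so a p-value here speaks of the scatter among these libraries, which can be technical only.

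The proteasome is the protease that degrades proteins tagged with ubiquitin. Its barrel, the 20S core, stacks rings of alpha subunits on rings of beta subunits, of which Psmb5, Psmb6 and Psmb7 carry the active sites, and a 19S regulatory particle on its end unfolds substrates with a ring of ATPases. In lymphocytes and in cells exposed to interferon, Psmb8, Psmb9 and Psmb10 replace the constitutive active subunits to form the immunoproteasome, which with the PA28 activator (Psme1 and Psme2) yields many of the peptides shown on MHC class I.

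Values are FPKM (fragments counted per kilobase of transcript and scaled for library depth), and levels of different genes are compared on this scale only. A change is the difference of group means of log2(FPKM + 1), the group named first minus the other, with its standard error. A gene was called when its Benjamini-Hochberg adjusted p from limma, over all 10004 genes, was under 0.05.

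Foxo1 itself, the check of the labels, had an FPKM of 18.5 ± 3.69 in LZ and 21.1 ± 2.99 in DZ (SD, n = 3) but of 1.87 ± 1.11 in Foxo1-deficient cells, and it fell by 2.82 against LZ (adjusted p = 0.00113) and by 3.01 against DZ (adjusted p = 0.000542). All 12 germinal center B cell markers had an FPKM of at least 1 in every library. Markers of myeloid and erythroid cells were higher in the Foxo1-deficient libraries. The summed FPKM of 14 macrophage, monocyte and dendritic cell markers ranged from 2.14 to 6.63 over the LZ libraries, from 0.655 to 2.93 over the DZ libraries and from 98.3 to 231.4 over the Foxo1-deficient ones. Of the 14, 10 were at 0 in all LZ libraries. In Foxo1-deficient cells 8 of the 14 had an FPKM of at least 1 in every library, while C1qb, Cd14 and Marco were at 0 in all of them. The 8 neutrophil markers summed to 0 in every LZ library, to at most 2.54 in DZ and to between 74.9 and 128.1 in Foxo1-deficient libraries, with Mpo and Elane at 0 throughout. The 7 erythroid and platelet markers summed to 21.9 to 44.4, 12.9 to 21.7 and 165.7 to 544.4 in LZ, DZ and Foxo1-deficient libraries, with Pf4 and Ppbp at 0 throughout. The 6 plasma cell markers summed to 127.4 to 151.1, 188.7 to 290.9 and 232.8 to 354.9 in the same order, 9 T cell markers to 27.6 to 32.5, 13.2 to 20.6 and 15.3 to 24.9 with Cd3e and Cd4 at 0, and 5 stromal markers to at most 0.588. Their part in the Foxo1-deficient values below was not tested, and in sorted bulk cells fewer cells of a type and less RNA per cell cannot be told apart. Foxo1-deficient replicate 3 stood apart from replicates 1 and 2 (Pearson's r 0.879 and 0.868 across tested genes, against 0.915 between the other pair). Several counts, medians and larger changes are therefore given with and without it, and the others with it only.

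Proteasome genes were among the abundant transcripts of these cells, and apart from Psma8 each subunit of the core and of the regulatory particle was present in every library. The median tested member had a median FPKM of 40.9, against 6.93 over all tested genes, whose 90th percentile was 38.2. Together the members made up 0.762% to 0.785% of the summed FPKM of an LZ library, 0.811% to 0.850% of a DZ library and 0.622% to 0.700% of a Foxo1-deficient one. These 3 ranges did not overlap, with DZ highest and Foxo1-deficient cells lowest, and the shares are a description with no test. The highest share of DZ did not mean a higher member sum. Member FPKM summed to 2522, 2661 and 2438 for LZ, overlapping the DZ sums of 2556, 2621 and 2024. Foxo1-deficient libraries had member sums of 2147, 2192 and 2024. The whole-library sums were lower for DZ (249729 to 310677) than for LZ (310713 to 348998). Those of Foxo1-deficient libraries (312015 to 325631) lay within the LZ range.

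**Figure D1:**
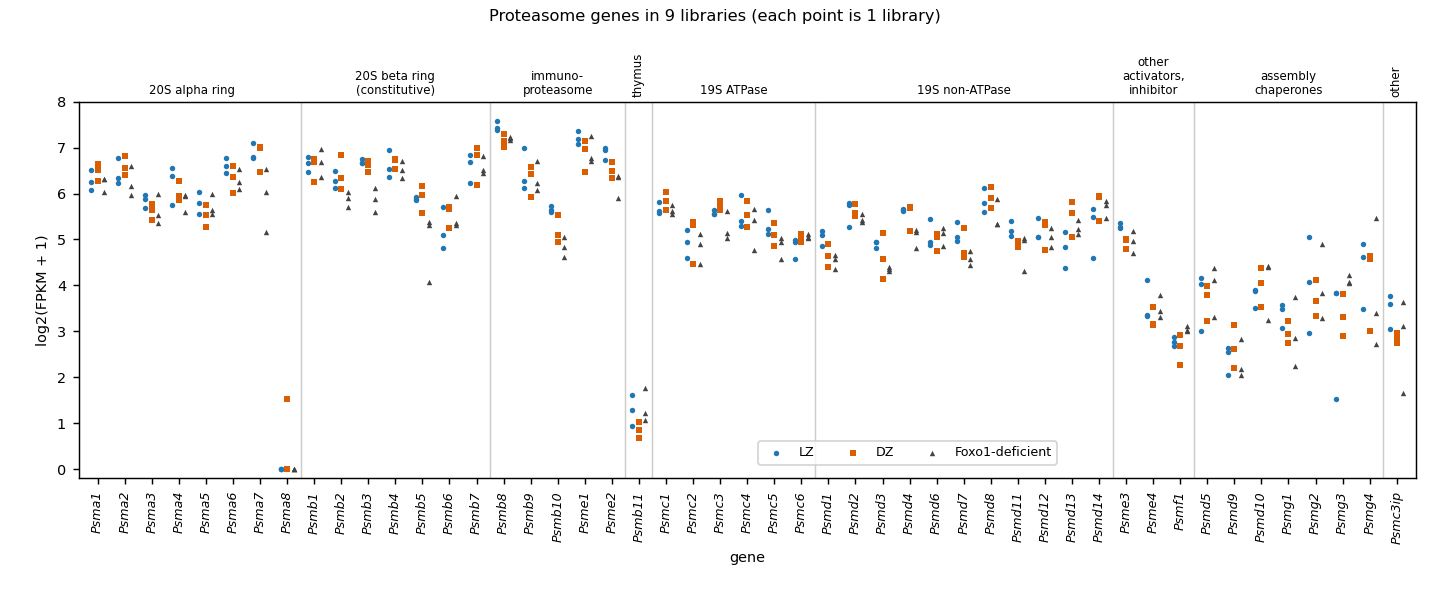
Level of each of the 49 proteasome genes as log2(FPKM + 1), with 1 point per library, genes ordered by role, and LZ as circles, DZ as squares and Foxo1-deficient as triangles. Apart from Psma8, which is at 0 in 8 libraries, subunits of the core and of the regulatory particle lie between an FPKM of 15.9 (Psmb5) and 136.2 (Psma7). Assembly chaperones mostly lie lower and spread more.

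The order of the levels was led by immunoproteasome genes. Psmb8, the inducible chymotrypsin-like subunit, had the highest mean over the 9 libraries, 154.8, with a range of 127.9 to 190.5. Psme1, a subunit of the PA28 activator, followed at 128.9, with a range of 87.8 to 163.8, so these neighbours overlap. Psmb7 (99.1), the constitutive trypsin-like subunit, Psmb1 (98.8), Psma7 (98.6) and Psmb4 (97.0), which are structural subunits of the barrel, came next and do not differ beyond their spread. At the low end were Psmf1 (6.16), which encodes the inhibitor PI31, Psmd9 (4.72), an assembly chaperone, and Psmb11 (1.30), the beta subunit of thymic cortical epithelium. Psma8, the alpha subunit of testis, was listed at 0 in 8 libraries and at 1.89 in DZ replicate 2. It was not tested.

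Within the core, the group means of the 14 tested constitutive subunits spanned a 3.18-fold range in LZ, 2.53-fold in DZ and 3.23-fold in Foxo1-deficient cells. Within the 19S particle, the 17 subunits spanned 2.07-fold, 2.45-fold and 2.6-fold. The 7 assembly chaperones varied more between replicates than the subunits. Their median coefficient of variation was 40.2% in LZ and 30.3% in DZ, with 41.8% in Foxo1-deficient cells. It was 14.4%, 16.7% and 17.3% in the core and 17.6%, 18.2% and 13.6% in the 19S particle. Psmg4, a chaperone of the alpha ring, had the highest, 106.6% in Foxo1-deficient cells, where its FPKM was 5.56, 9.55 and 43.4. Some chaperones rest on few fragments per library, as estimated from the deposited intervals. The fewest were 10.4 in Psmg3, 12.25 in Psmg4 and 18.8 in Psmg1, a counting error of up to 31.0%, 28.6% and 23.1%. The part of counting in their spread was not tested.

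Between the wild-type zones no member was called by limma, nor with voom weights, on a background of 1.94% of all tested genes (0.56% called higher and 1.38% lower). At an unadjusted p under 0.05 there were 4 members, Psmb8, Psmb10 and Psme2 with a negative change and Psmd13 with a positive one, where 15.4% of all genes had such a p. The median change of DZ against LZ over the 48 members was -0.11, beside -0.15 over all genes, and 30 members (62.5%) were below 0, beside 65.0% of all genes. The members as a whole therefore lay close to the background in this comparison. Their median rested on single libraries, being 0.033 without DZ replicate 3, -0.05 without LZ replicate 2 and -0.19 without DZ replicate 2. In 6 members (12.5%) all DZ libraries were below all LZ libraries, beside 17.1% of all genes, and in none were all DZ libraries above, beside 5.16%.

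By class, the core median was -0.03 with 7 of 14 below 0, and the 19S median was -0.01 with 9 of 17 below 0. All 5 immunoproteasome genes were below 0, with a median of -0.34, where 65.0% of all genes were below 0. In 3 of the 5 all DZ libraries were below all LZ libraries, beside 17.1% of all genes. None of the 5 was called, the lowest adjusted p being 0.278. Median centring of the libraries moved the median of all genes from -0.15 to 0.04, turned the core and 19S medians to 0.16 and 0.18 and left the immunoproteasome at -0.15 with 4 of 5 below 0. Relative to the median of all genes, the core median was 0.12, the 19S median 0.14 and the immunoproteasome median -0.20, which centring cannot change, and under quantile normalization they were 0.038, 0.072 and -0.27. Psme3 and Psme4, the other activators, and the inhibitor Psmf1 were also below 0, with a median of -0.32.

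Psmb8 (chromosome 17, 34335140 to 34338399, mm9) had an FPKM of 190.5, 166.3 and 171.3 in LZ, 141.4, 157.3 and 127.9 in DZ, and 146.9, 149.2 and 142.7 in Foxo1-deficient cells. Each LZ library lay above every DZ and every Foxo1-deficient library, and the remaining groups overlapped. The change was -0.31 ± 0.13 (SE) for DZ against LZ (adjusted p = 0.278), -0.26 for Foxo1-deficient against LZ (adjusted p = 0.402) and 0.05 for Foxo1-deficient against DZ (adjusted p = 0.896), so no difference was called. Psmb8 also had the lowest coefficient of variation of the immunoproteasome genes in Foxo1-deficient cells, 2.25%. That is below its counting error of 3.75% to 5.11% over the 9 libraries, as estimated from the deposited intervals, so it is not read as a trait of the gene.

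Psmb10 (chromosome 8, 108459628 to 108462292), the inducible trypsin-like subunit, was 51.9, 47.3 and 49.1 in LZ, 33.1, 45.5 and 29.9 in DZ, and 27.8, 23.4 and 32.1 in Foxo1-deficient cells. LZ was highest with no overlap with either group, while DZ and Foxo1-deficient cells overlapped. Its change was -0.46 ± 0.19 for DZ against LZ (adjusted p = 0.279), -0.82 ± 0.19 for Foxo1-deficient against LZ (adjusted p = 0.0629) and -0.36 for Foxo1-deficient against DZ (adjusted p = 0.390). The value against LZ fell short of the threshold, and it passed under median centring of the libraries (adjusted p = 0.0442). It passed in 0 of the 9 fits that left out 1 library (adjusted p from 0.0606 to 0.190).

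Psme2 (chromosome 14, 56206277 to 56209938), the second PA28 subunit, was 122.7, 125.8 and 105.3 in LZ, 89.2, 101.9 and 79.5 in DZ, and 82.8, 81.1 and 59.1 in Foxo1-deficient cells. Again every LZ library was above all others and the remaining groups overlapped. Its change was -0.39 for DZ against LZ (adjusted p = 0.299), -0.67 ± 0.17 for Foxo1-deficient against LZ (adjusted p = 0.0848) and -0.28 for Foxo1-deficient against DZ (adjusted p = 0.447), the last being -0.13 without Foxo1-deficient replicate 3. The value against LZ passed under median centring (adjusted p = 0.0435), under quantile normalization (adjusted p = 0.0405) and with the replicate number as a block (adjusted p = 0.0408). It passed in 0 of the 9 fits that left out 1 library (adjusted p from 0.0838 to 0.250). Without Foxo1-deficient replicate 3 it was -0.52 (adjusted p = 0.250).

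Psmb9, the inducible subunit that replaces Psmb6, and Psme1 were less even. Psmb9 was 76.9, 126.9 and 68.5 in LZ, 85.2, 94.1 and 59.8 in DZ, and 103.3, 66.0 and 73.8 in Foxo1-deficient cells, with changes of -0.16, -0.13 and 0.02 (adjusted p from 0.845 to 0.976). Psme1 was 144.7, 133.4 and 163.8 in LZ, 124.8, 140.3 and 87.8 in DZ, and 103.7, 152.5 and 109.0 in Foxo1-deficient cells, with changes of -0.34, -0.29 and 0.05 (adjusted p from 0.473 to 0.927). For both genes the 3 groups overlapped. Psmb9 and Psmb8 flank Tap1, the peptide transporter of MHC class I, in the mm9 loci of the tables, at gaps of 225 and 969 bases, and Psme1 and Psme2 lie 5912 bases apart.

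**Figure D2:**
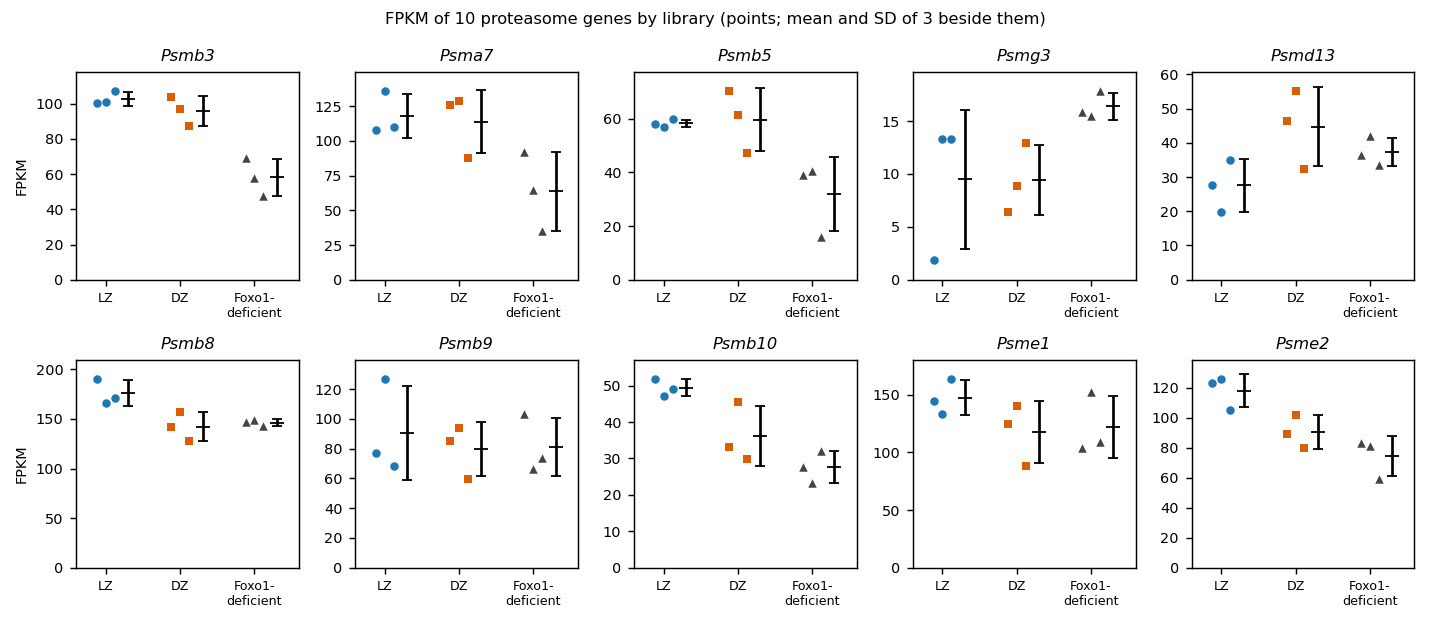
FPKM of 10 proteasome genes in LZ, DZ and Foxo1-deficient libraries, with 1 point per library and the mean and SD of 3 beside the points, on axes that start at 0. Psmb3 is lower in all Foxo1-deficient libraries (47.8 to 68.9) than in the other 6, and for Psmb8, Psmb10 and Psme2 each LZ library lies above the other 6.

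Among the other members between the zones, the largest changes with all libraries in the fit were in the 19S lid and in one gene that is no subunit. Psmd13, a lid subunit, was 27.6, 19.9 and 35.1 in LZ, 46.5, 55.2 and 32.4 in DZ and 36.5, 41.9 and 33.6 in Foxo1-deficient cells, with a change of 0.68 ± 0.24 for DZ against LZ (adjusted p = 0.205). DZ replicate 3 lay within the LZ range. Psmd14, the deubiquitinase of the lid, was 23.2, 49.7 and 43.6 in LZ, 60.2, 59.6 and 41.3 in DZ and 43.1, 52.6 and 56.4 in Foxo1-deficient cells, and its change of 0.51 did not pass (adjusted p = 0.415) and was 0.18 without LZ replicate 1. Psmc3ip, which the naming rule takes in although it encodes a cofactor of meiotic recombination, was 11.01, 12.6 and 7.33 in LZ, 6.85, 5.71 and 6.21 in DZ, and 7.74, 2.16 and 11.5 in Foxo1-deficient cells. Every DZ value lay below every LZ value, and the change of -0.62 did not pass (adjusted p = 0.565).

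Against LZ, Foxo1-deficient cells had 1 member called, Psmb3, which fell, on a background of 1.56% of genes called, 0.87% lower and 0.69% higher. At an unadjusted p under 0.05 there were 10 members, beside 13.4% of all genes. The median change over the members was -0.21, beside -0.02 over all genes, and 38 of 48 (79.2%) were below 0, beside 52.0% of all genes. In 14 members (29.2%) all Foxo1-deficient libraries lay below all LZ libraries, beside 9.37% of all genes. These were Psma7, Psmb2, Psmb3, Psmb5 and the immunoproteasome genes Psmb8, Psmb10 and Psme2, the 19S genes Psmc5, Psmd1, Psmd3, Psmd4, Psmd7 and Psmd11, and the activator Psme3. Psmc6, Psmf1 and Psmg3 lay wholly above LZ, which is 3 of 48, beside 8.12% of all genes. Without Foxo1-deficient replicate 3, 15 members (31.2%) lay wholly below LZ, beside 13.2% of all genes, the median was -0.20, no member was called and 11 had an unadjusted p under 0.05.

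Against DZ the same 3 Foxo1-deficient libraries gave 1 called member, again Psmb3, which fell, on a background of 2.85% of genes called, 0.75% lower and 2.1% higher. An unadjusted p under 0.05 was found for 6 members, beside 16.3% of all genes. The median change was -0.12, beside 0.12 over all genes, with 32 of 48 (66.7%) below 0, beside 38.8% of all genes. On the scale of each comparison, 41 of the 48 lay below the median of all genes here and 36 in the comparison with LZ. Psmb2, Psmb3, Psmb5 and Psmc3 lay wholly below DZ (8.33%, beside 5.78% of all genes), and Psmb11, Psmf1 and Psmg3 wholly above it (3 of 48, beside 17.3%). The median was -0.045 without DZ replicate 1, -0.066 without DZ replicate 2 and -0.23 without DZ replicate 3. Without Foxo1-deficient replicate 3 the median was -0.15 and 6 members lay wholly below DZ (12.5%, beside 8.44% of all genes), no member was called and 5 had an unadjusted p under 0.05.

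By class, the core had a median of -0.21 against LZ with 12 of 14 below 0 and of -0.18 against DZ with 11 of 14 below 0. Of all genes, 52.0% were below 0 against LZ and 38.8% against DZ. The 19S particle had -0.27 against LZ with 14 of 17 below 0 and -0.23 against DZ with 15 of 17 below 0, and all 17 lay below the median of all genes against DZ. The immunoproteasome genes had -0.29 against LZ with 5 of 5 below 0 and 0.02 against DZ with 2 of 5 below 0, none of them separate from DZ. The value against DZ turned to -0.16, with 5 of 5 below 0, under median centring, which moved the median of all genes from 0.12 to -0.06. Relative to the median of all genes, the core median against DZ was -0.30, the 19S median -0.35 and the immunoproteasome median -0.10, and under quantile normalization they were -0.17, -0.23 and 0.026, the last with its sign turned. Without Foxo1-deficient replicate 3 the core medians were -0.14 against LZ and -0.20 against DZ, the 19S medians -0.20 and -0.18, and the immunoproteasome medians -0.25 and 0.063. Chaperones had -0.02 and 0.04 with all libraries. Those that moved most against LZ without Foxo1-deficient replicate 3 were Psmg4 (-0.48 to -1.28), Psmg2 (-0.02 to -0.47) and Psmd10 (0.26 to 0.65). Psmb3 was the 1 gene of these classes that passed, so the class medians are given as descriptions and the difference between classes was not tested.

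**Figure D3:**
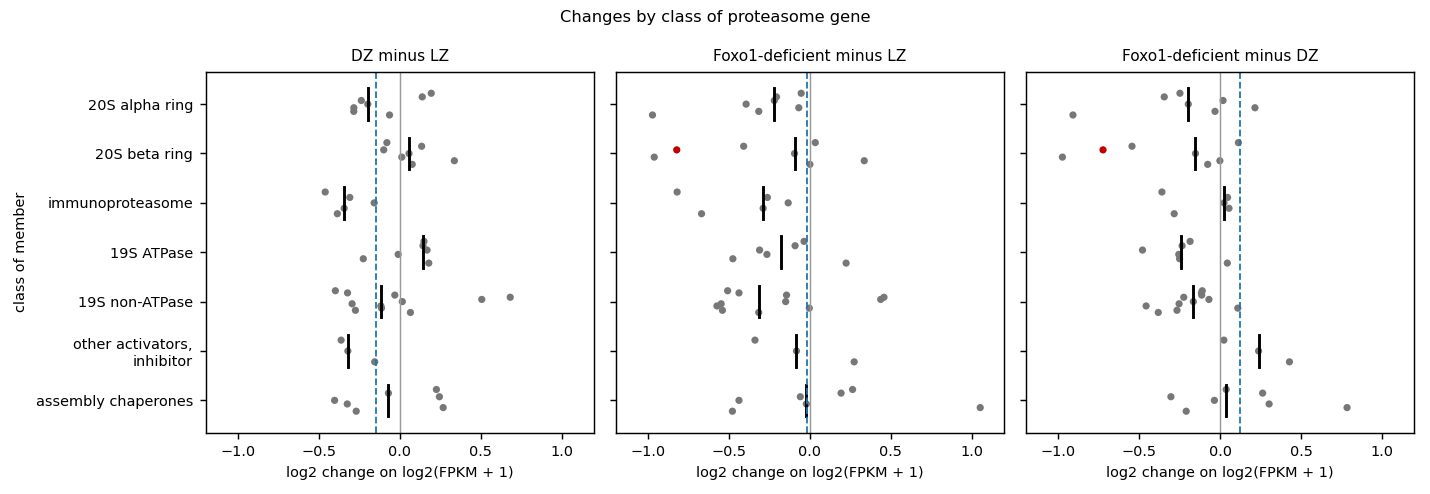
Change of each tested member on the log2(FPKM + 1) scale, by class and comparison, with each point 1 gene, the black bar the class median, the dashed line the median of all 10004 tested genes and red the called gene. Psmb3 is the red point in both comparisons of Foxo1-deficient cells (-0.82 and -0.72), and the immunoproteasome median is -0.34 and -0.29 against LZ but 0.02 for Foxo1-deficient against DZ.

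Psmb3 (chromosome 11, 97564748 to 97574814), a structural subunit of the beta ring with no active site, was 100.2, 100.9 and 107.4 in LZ, 104.1, 97.1 and 87.2 in DZ, and 68.9, 58.1 and 47.8 in Foxo1-deficient cells. The highest Foxo1-deficient library lay below the lowest wild-type one, and LZ and DZ overlapped. It fell by 0.82 ± 0.16 on the log2 scale against LZ (adjusted p = 0.0288) and by 0.72 ± 0.16 against DZ (adjusted p = 0.0331), with -0.10 between the zones (adjusted p = 0.838). Its fragments per library, estimated from the deposited intervals, were 98.7 to 281.2, a counting error of 5.96% to 10.1%, while replicates varied by 3.84% in LZ and 8.86% in DZ, and by 18.1% in Foxo1-deficient cells. The call against LZ was lost without LZ replicate 1, 2 or 3 (adjusted p = 0.0902, 0.0845 and 0.105), without DZ replicate 2 (0.0580) and without Foxo1-deficient replicate 2 or 3 (0.0912 and 0.103). The call against DZ was lost in 8 of the 9 fits that left out 1 library, all but the fit without Foxo1-deficient replicate 1 (adjusted p in the 8 fits from 0.0504 to 0.134), and both calls were lost when the fit held the compared groups alone (adjusted p = 0.0755 and 0.0827) and with no intensity trend (0.104 and 0.115).

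Psma7 and Psmb5 had wider spreads than Psmb3, and the size of their changes rested on Foxo1-deficient replicate 3. Psma7, an alpha ring subunit, was 108.2, 136.2 and 109.9 in LZ, 125.6, 129.0 and 87.5 in DZ, and 91.9, 64.4 and 35.1 in Foxo1-deficient cells, with changes of -0.97 ± 0.29 against LZ (adjusted p = 0.159) and -0.91 ± 0.29 against DZ (adjusted p = 0.146). Psmb5, the constitutive chymotrypsin-like subunit, was 57.9, 57.0 and 59.8 in LZ, 70.3, 61.2 and 47.0 in DZ, and 38.9, 40.5 and 15.9 in Foxo1-deficient cells, with changes of -0.96 ± 0.30 against LZ (adjusted p = 0.174) and -0.98 ± 0.30 against DZ (adjusted p = 0.130). In both genes Foxo1-deficient replicate 3 was by far the lowest library, and the coefficient of variation was 44.5% and 43.3%. Without it the change of Psma7 was -0.60 against LZ and -0.54 against DZ, that of Psmb5 -0.54 and -0.55, and that of Psmb3 -0.69 and -0.59. Psmb5 was separate from both wild-type groups, while Psma7 replicate 1 lay within the DZ range.

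The other constitutive catalytic subunits overlapped between the groups. Psmb6, the constitutive caspase-like subunit, was 33.2, 27.1 and 51.3 in LZ, 51.3, 49.5 and 37.3 in DZ, and 38.9, 40.1 and 60.4 in Foxo1-deficient cells, with changes of 0.34, 0.34 and -0.00 (adjusted p from 0.599 to 0.997), and its change against LZ was 0.14 without Foxo1-deficient replicate 3. Psmb7 was 114.2, 102.6 and 74.6 in LZ, 126.6, 113.4 and 71.6 in DZ, and 90.1, 86.5 and 112.0 in Foxo1-deficient cells, with changes of 0.08, -0.00 and -0.08. Neither gene had a group that stood apart from the others.

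In the regulatory particle no gene was called in Foxo1-deficient cells, and several non-ATPase subunits lay below LZ. Psmd4, a ubiquitin receptor, was 48.7, 50.0 and 48.0 in LZ, 50.9, 50.3 and 35.6 in DZ, and 36.0, 35.0 and 27.1 in Foxo1-deficient cells, with changes of -0.57 against LZ (adjusted p = 0.178) and -0.46 against DZ (adjusted p = 0.242). Psmd3, a lid subunit, was 29.8, 30.0 and 27.2 in LZ, 34.1, 22.7 and 16.5 in DZ, and 20.1, 19.4 and 18.99 in Foxo1-deficient cells, a change of -0.55 against LZ (adjusted p = 0.326). Both lay wholly below LZ and overlapped DZ. Psmd1, a scaffold of the base, Psmd7, the partner of the deubiquitinase Psmd14, and the lid subunit Psmd11 were also separate from LZ, with changes of -0.51, -0.54 and -0.44 (adjusted p from 0.256 to 0.395), of which that of Psmd11 was -0.20 without Foxo1-deficient replicate 3.

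Of the 6 ATPases, Psmc5 was wholly below LZ (-0.48, adjusted p = 0.352), Psmc3 wholly below DZ (-0.48, adjusted p = 0.195) and Psmc6 wholly above LZ (0.22, adjusted p = 0.607). Psmc6 was 30.0, 30.9 and 22.99 in LZ, 29.8, 34.0 and 31.0 in DZ, and 32.3, 33.7 and 31.6 in Foxo1-deficient cells, so its separation from LZ was small. The alpha ring genes other than Psma7, which form the gate and outer wall of the barrel, had changes of -0.39 to -0.05 against LZ and -0.35 to 0.21 against DZ, and in none of them were the groups separate. Among the structural beta genes, Psmb1 (0.03 and 0.11) and Psmb4 (-0.10 and -0.15) overlapped in all groups. Psmb2 was 68.5, 75.9 and 88.5 in LZ, 113.4, 67.4 and 80.0 in DZ, and 64.3, 51.3 and 58.8 in Foxo1-deficient cells, below both wild-type groups without passing (-0.41 and -0.55, adjusted p = 0.400 and 0.197).

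The ratio of each inducible subunit to the constitutive one it replaces, taken within a library, gives a value that does not depend on the scaling of that library. Psmb8 over Psmb5, as a ratio of FPKM, was 3.29, 2.92 and 2.87 in LZ, 2.01, 2.57 and 2.72 in DZ, and 3.77, 3.69 and 8.96 in Foxo1-deficient cells. The 3 groups did not overlap, with Foxo1-deficient cells highest and DZ lowest, and replicate 3 stood far above the rest. On the log2(FPKM + 1) scale the mean differences were 1.58 ± 0.11, 1.26 ± 0.23 and 2.28 ± 0.70 (SD, n = 3), the last being 1.87 without replicate 3.

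Psmb10 over Psmb7 was likewise lower in DZ than in LZ. Unlike Psmb8 over Psmb5, it was also lower than LZ in Foxo1-deficient cells. It was 0.454, 0.460 and 0.659 in LZ, 0.261, 0.402 and 0.418 in DZ, and 0.308, 0.270 and 0.286 in Foxo1-deficient cells, so LZ was highest without overlap and the remaining groups overlapped. Psmb9 over Psmb6 (log2 difference 1.26 ± 0.89, 0.77 ± 0.13 and 0.79 ± 0.56) overlapped in all groups.  The PA28 subunits over Psme3, the PA28 homolog of the nucleus, overlapped in all groups, with means on the log2 scale of 1.92, 1.93 and 1.97 for Psme1 and 1.6, 1.57 and 1.27 for Psme2. All ratios are given without a test.

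**Figure D4:**
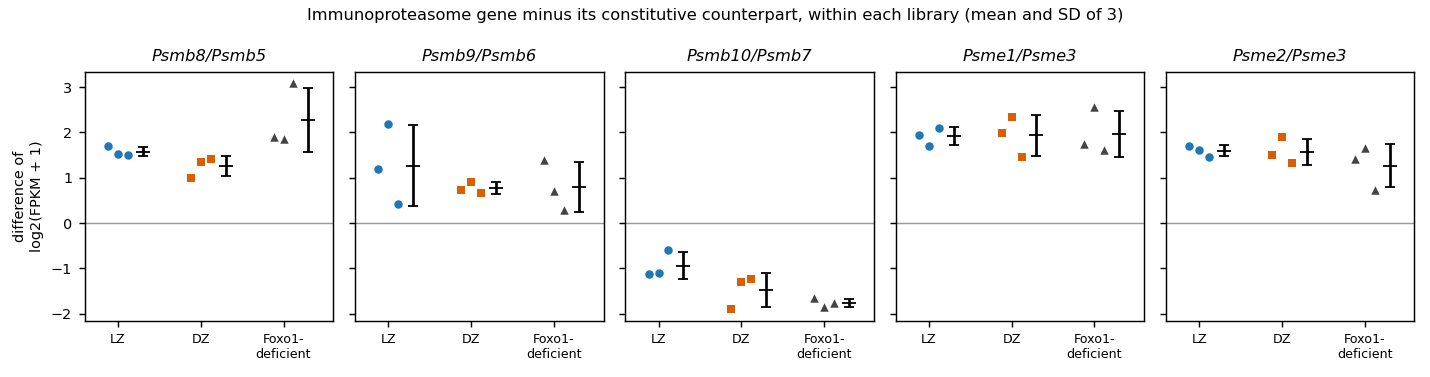
Difference of log2(FPKM + 1) between an immunoproteasome gene and its constitutive counterpart, or between a PA28 subunit and Psme3, within each library, with the mean and SD of 3 beside the points. Psmb8 over Psmb5 is highest in the 3 Foxo1-deficient libraries (mean 2.28, with replicate 3 at 3.09), while Psmb10 over Psmb7 is highest in LZ (mean -0.94).

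Psme3 was 36.9, 40.3 and 37.5 in LZ, 30.8, 26.7 and 31.1 in DZ, and 30.4, 25.1 and 35.2 in Foxo1-deficient cells. LZ lay above both other groups, with changes of -0.36 for DZ (adjusted p = 0.340) and -0.34 for Foxo1-deficient cells (adjusted p = 0.416), neither of which passed. Psme4, the PA200 activator, was 9.16, 16.3 and 9.25 in LZ, 10.6, 8.01 and 7.83 in DZ, and 8.94, 9.95 and 12.9 in Foxo1-deficient cells, with overlap in all groups. Psmg3, a chaperone of the alpha ring, had the largest positive change, 1.05 ± 0.53 against LZ (adjusted p = 0.417). It was 1.87, 13.3 and 13.3 in LZ, 6.42, 8.87 and 12.97 in DZ and 15.8, 15.5 and 17.9 in Foxo1-deficient cells. The Foxo1-deficient libraries lay above the rest, and the size of the change rests on LZ replicate 1, in a gene with 10.4 to 52.9 estimated fragments per library. Psmf1 was 5.87, 6.37 and 5.43 in LZ, 5.44, 6.61 and 3.81 in DZ, and 7.72, 7.22 and 7.01 in Foxo1-deficient cells, above both wild-type groups with changes of 0.27 and 0.43 that did not pass (adjusted p = 0.679 and 0.432).

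Some of these genes have near-identical copies, and the sources used here do not give how reads that map to several places were treated. In mouse transcripts of GENCODE M21, 11 of the 49 members had a copy of at least 200 bases at 95% identity or more, 19 copies in all, of which 2 had an entry in the tables. Psmb3 had 3 pseudogene copies, Gm5356 (96.3% over 615 bases), Gm4950 (97.1%) and AC114990.1 (97.1%). Psmb5 had Gm3375 (98.9% over 796 bases), and Psme2 had Psme2b (99.4% over 794 bases). The levels of these 3 genes are uncertain to that extent, and the part of the copies was not tested.

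The upstream bases of Psmb3, the gene called, of Psmb5, the constitutive chymotrypsin-like subunit, and of Psmb8, its inducible counterpart, are shown as the 250 bases before the annotated start, from RefSeq on GRCm38.p6, 5′ to 3′ on the strand of the gene. Promoters were found for 41 of the 49 members. They were searched on both strands for an interferon regulatory factor type motif (GAAA, any 2 bases, GAAA), an NFE2 related type motif (TGACNNNGC) and an NF-kB type motif (GGG, any 2 bases, TTTCC), and capitals mark a match. They lie at chr11:97703184-97703433 on the plus strand, chr14:54617996-54618245 on the minus strand and chr17:34197945-34198194 on the plus strand.
Psmb3: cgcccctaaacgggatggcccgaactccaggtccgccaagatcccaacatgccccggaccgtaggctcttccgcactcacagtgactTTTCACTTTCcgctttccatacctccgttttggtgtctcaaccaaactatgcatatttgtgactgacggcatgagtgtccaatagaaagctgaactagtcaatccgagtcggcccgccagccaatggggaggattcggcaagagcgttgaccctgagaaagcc
Psmb5: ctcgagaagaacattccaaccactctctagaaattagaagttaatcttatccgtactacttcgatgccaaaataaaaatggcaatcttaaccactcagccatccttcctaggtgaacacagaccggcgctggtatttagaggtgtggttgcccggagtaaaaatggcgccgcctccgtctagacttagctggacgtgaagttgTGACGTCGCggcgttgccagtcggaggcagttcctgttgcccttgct
Psmb8: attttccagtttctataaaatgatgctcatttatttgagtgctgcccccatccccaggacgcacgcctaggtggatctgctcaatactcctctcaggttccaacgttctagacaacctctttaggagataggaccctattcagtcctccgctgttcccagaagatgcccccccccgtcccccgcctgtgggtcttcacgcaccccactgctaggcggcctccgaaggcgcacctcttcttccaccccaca
In Psmb3 the capitals are the interferon regulatory factor type motif read on the opposite strand, and in Psmb5 they are the NFE2 related type motif. Psmb8 held no match to the 3 patterns in this window. The interferon regulatory factor type motif was found in 3 members (Psmb3, Psmd4 and Psmd9) and in 2.98% of all 32851 promoters of this length. The NFE2 related type motif was found in 5 members (Psmb5, Psmb6, Psmc6, Psmd9 and Psmd12) and in 10.2% of all promoters, and the NF-kB type motif in no member and in 1.41%. These matches describe letters only.

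Genes that work with the proteasome were taken from lists. Of 10 tested partners and assembly factors outside the naming rule, such as the receptor Adrm1 and the assembly factor Pomp, none was called in any of the 3 comparisons, and the medians were -0.03 for DZ against LZ, -0.13 for Foxo1-deficient against LZ and -0.17 for Foxo1-deficient against DZ. None of 4 genes of proteasome transcription and recovery, of 17 ubiquitin genes and of 7 inducers of the immunoproteasome was called by limma either, or with voom weights. At an unadjusted p under 0.05, each of these 4 lists had at most 2 genes in a comparison, beside 13.4% to 16.3% of all genes. By limma the 2 were among the 7 inducers, for DZ against LZ. Of all genes 1.56% to 2.85% were called, so none in lists this short is near that share. In the order above the medians were -0.15, -0.43 and -0.24 for transcription and recovery, 0.01, -0.07 and -0.01 for ubiquitin genes and -0.38, -0.14 and -0.01 for inducers. Over all genes they were -0.15, -0.02 and 0.12. Pomp was 85.3, 146.0 and 109.1 in LZ, 97.8, 102.8 and 98.4 in DZ and 95.4, 83.6 and 49.9 in Foxo1-deficient cells, so replicate 3 was again the lowest library. Its change of -0.58 against LZ did not pass (adjusted p = 0.325) and was -0.31 without replicate 3.

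Of 18 genes of MHC class I processing and presentation, 2 fell from LZ to DZ, where 1.38% of all genes were called lower, and 15 were below 0, beside 65.0% of all genes. The median was -0.43 beside -0.15 over all genes, and 9 of the 18 had an unadjusted p under 0.05, beside 15.4%. Tapbp, which holds MHC class I at the peptide transporter, was 42.5 ± 4.34 in LZ and 21.1 ± 2.76 in DZ and fell by 0.98 (adjusted p = 0.0165). Calr, a chaperone of the same loading complex, was 177.9 ± 3.45 and 107.1 ± 21.2 and fell by 0.75 (adjusted p = 0.0425). Tapbp no longer passed in fits without LZ replicate 2 (adjusted p = 0.0696), DZ replicate 1 (0.0555) or DZ replicate 3 (0.0557) and with no intensity trend (0.0602), and Calr no longer passed in 8 of the 9 fits that left out 1 library, all but the fit without Foxo1-deficient replicate 3 (0.0565 to 0.126 in the 8 fits), as well as without a filter (0.0766), with the compared groups alone (0.0883) and with no intensity trend (0.144). Tap1, the neighbour of Psmb8 and Psmb9, was 48.8, 53.5 and 58.0 in LZ, 37.5, 42.2 and 28.9 in DZ and 45.9, 37.1 and 35.7 in Foxo1-deficient cells, and like Psmb8 each LZ library was above the other 6 while the change of -0.56 did not pass (adjusted p = 0.166). In Foxo1-deficient cells none of the 18 was called, where 1.56% of all genes were called against LZ and 2.85% against DZ. An unadjusted p under 0.05 was found for 5 of the 18 against LZ, beside 13.4% of all genes, and for 2 against DZ, beside 16.3%, with medians of -0.33 against LZ and 0.16 against DZ.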

How the data were processed

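Total RNA in TRIzol was made into libraries with the NEBNext Ultra kit, per the labels' protocols. The mm9 build, TopHat2 (2.0.8) and Cufflinks (2.1.1) are named without role or order, per the submitters' processing notes. For each library the authors deposited a table of genes from Cufflinks with the FPKM, its confidence bounds and a status for each of 23700 entries, per the file headers. The sources used here do not give the scaling total, bias correction or strand. The FPKM of 12 to 19 of the 49 members per library lay above its own upper bound. Psmb3 and Psmb8 did so in all 9 libraries, at 1.28 to 1.33 and 1.14 to 1.16 times the midpoint of the interval. Psmb5 did so in 0 libraries, and Psme1 in 5, at 0.998 to 1.20 times the midpoint over all 9. With the midpoint in place of FPKM, Psmb3 was still called by limma (adjusted p = 0.0311 against LZ and 0.0428 against DZ). The part of this excess in the other values was not tested.

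Entries of symbols at several loci (716) and 7 genes with a failed estimate were left out. Genes that reached an FPKM of 1 in 3 or more of the 9 libraries were tested with limma 3.58.1 (R 4.3.3) on log2(FPKM + 1), which understates changes of low genes, with an intensity trend and all libraries in 1 fit on group means without a replicate block. P-values are two-sided, and the test was checked on simulated data. Depth is not stated. The fragments behind a value were estimated from the width of its interval, and by that estimate libraries held 0.871 to 1.30 of the median total. Copies were sought with blastn 2.17.0.

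The members, classes and lists were chosen with earlier results of these data known. Values in full were given for the immunoproteasome genes, their counterparts, called members, the 3 members with the largest change in each comparison, and the highest, lowest and untested members. Of the lowest members, Psmd9 and Psmb11 are given by their mean over the 9 libraries only. Other genes are named after their values were seen. Alternatives were another pseudocount, filter, scaling, fit and weighting, leaving out each library and, chosen after seeing the data, the interval midpoint in place of FPKM.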

Additional observations from a re-analysis of the deposited data

How the results depend on the processing

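The fall of Psmb3 kept its direction in both comparisons under every alternative run, and its call ended when the fit held the compared groups alone and when it had no intensity trend, where 0 members were lower against LZ and 0 against DZ. Members lower against LZ numbered 2 under quantile normalization (Psmb3 and Psme2) and 3 under median centring (Psmb10 added), and against DZ 4 under median centring (Psma7, Psmb3, Psmc3 and Psmd4). With the replicate number as a block 2 members were lower against LZ, Psme2 being added, and no other member's call changed. The numbers were not taken to pair libraries, since the labels do not say that they mark a shared animal, litter or day. Deviations of same-numbered libraries correlated at -0.07 to 0.08 over 9 pairs, and 8 libraries correlated best with their own number. These values do not settle whether the libraries are paired. The member median under median centring was 0.083 for DZ against LZ and -0.29 for Foxo1-deficient against DZ.

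Called genes over the whole table numbered 109 without a filter, 122 with only the compared groups and 79 without the trend for DZ against LZ (194 in the fit reported), and 99 with a pseudocount of 0.1, 96 with an FPKM of at least 5 and 58 with only the compared groups for Foxo1-deficient against LZ (156). Median centring changed the split of higher and lower calls from 56 and 138 to 133 and 101 for DZ against LZ, and from 210 and 75 to 181 and 225 for Foxo1-deficient against DZ. Quantile normalization gave 89 and 119, and 219 and 141. The cause was not tested.

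Signs were followed for some members only, so the list below does not hold every member that turned. With all libraries kept, the turned values of the followed members lay between -0.16 and 0.13 and were uncalled. Of all 48 tested members, 30 were below 0 for DZ against LZ and 20 under median centring. These numbers were 38 and 36 for Foxo1-deficient against LZ, and 32 and 41 for Foxo1-deficient against DZ. For DZ against LZ, median centring gave Psma7 0.13, Psmb3 0.090 and Psmb9 0.031, and voom weights gave Psma7 0.13 and Psmb3 0.11. For Foxo1-deficient against LZ, Psmb7 was 0.048 under quantile normalization, 0.010 under median centring and 0.054 under voom. For Foxo1-deficient against DZ, median centring gave Psmb8 -0.13, Psmb9 -0.16, Psme1 -0.12 and Psme3 -0.16, voom gave Psmb9 -0.12 and Psme3 -0.13, quantile normalization gave Psme3 -0.0028, and the interval midpoint gave Psmb6 0.024.

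Leaving out 1 library at a time gave 73 to 215 called genes for DZ against LZ, 41 to 141 for Foxo1-deficient against LZ and 119 to 245 for Foxo1-deficient against DZ, 0 to 1 members lower in the latter 2, and a member median of -0.19 to 0.033 for DZ against LZ, -0.26 to -0.17 for Foxo1-deficient against LZ and -0.23 to -0.045 for Foxo1-deficient against DZ. Among the members whose signs were followed, signs turned within the ranges below. For DZ against LZ they were -0.16 to 0.11 for Psma7, -0.12 to 0.17 for Psmb5, -0.10 to 0.32 for Psmb7, -0.33 to 0.11 for Psmb9 and -0.50 to 0.65 for Psmg3. For Foxo1-deficient against LZ they were -0.18 to 0.13 for Psmb7, -0.32 to 0.13 for Psmb9 and -0.22 to 0.17 for Psme4. For Foxo1-deficient against DZ they were -0.20 to 0.11 for Psmb6, -0.32 to 0.084 for Psmb7, -0.028 to 0.12 for Psmb8, -0.17 to 0.16 for Psmb9, -0.46 to 0.53 for Psmc3ip, -0.25 to 0.041 for Psmd14, -0.14 to 0.19 for Psme1 and -0.090 to 0.14 for Psme3.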
